A study of Homo sapiens with 6 samples.

Results

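TXNIP, the other 4 tested alpha-arrestin genes ARRDC1, ARRDC2, ARRDC3 and ARRDC4, and the genes of the transcription factors MondoA (MLXIP) and MLX are described here. They are the 7 rows of the deposited table, of 60675 gene rows in all, whose gene name equals one of these symbols, and all 7 had enough counts to be tested. The study's title gives its subject as the selectivity of compounds that inhibit HDAC6, also called KDAC6, a lysine deacetylase that acts largely outside the nucleus. HT1080 cells, an established human fibrosarcoma line of wild-type genotype, were given SW-113 or SW-138, each at 1 µM for 48 h, and ribosomal-RNA-depleted total RNA was sequenced from 3 libraries per compound. Vehicle-treated cells were not analysed here, so each compound is set only against the other, as a single pair at matched dose and time, and "higher" and "lower" describe SW-138 set against SW-113. A gene higher in SW-138 could have been raised by SW-138, lowered by SW-113, or both, and these cannot be told apart. Nothing in the labels ties the replicates to separate cultures: the p-values rest on the spread among these libraries alone, which may be technical. Levels are given as CPM, the count of a gene per 1e6 counts of its library, with library totals adjusted by edgeR's TMM factors. The genes were selected on the fold changes and test results of this same comparison, in which TXNIP was known to differ, so the members' own differences are given as a description, with no p-value.

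Alpha-arrestins are adaptor proteins that bring ubiquitin ligases of the NEDD4 family to membrane proteins and so steer these proteins into the cell. TXNIP also binds and inhibits thioredoxin and lowers glucose uptake by promoting removal of the glucose transporter GLUT1 from the cell surface. MondoA pairs with MLX, senses glucose 6-phosphate, and binds carbohydrate response elements, which are paired E-box-like sequences next to gene starts. TXNIP and ARRDC4 are its best known targets, and TXNIP is known to rise in many cells given broad deacetylase inhibitors.

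The promoters of TXNIP, ARRDC4 and ARRDC3 are shown because the first 2 are the best known MondoA targets, while ARRDC3 was, beside TXNIP, the alpha-arrestin that differed between the compounds. The sequences are RefSeq's (GRCh38.p14), 5′ to 3′ on the strand of the gene, from 250 bases before the RefSeq start to the last base before the start in GENCODE release 29. They run over chr1:145996601-145996829 (minus strand), chr15:97960453-97960697 (plus strand) and chr5:91383360-91383567 (minus strand). Capitals mark matches, on either strand, to the E-box CACGTG, its variant form CACGAG, the box named CCAAT, the forkhead-type sequence GTAAACA, the GC box GGGCGG and the TATA-type sequence TATATA.
TXNIP: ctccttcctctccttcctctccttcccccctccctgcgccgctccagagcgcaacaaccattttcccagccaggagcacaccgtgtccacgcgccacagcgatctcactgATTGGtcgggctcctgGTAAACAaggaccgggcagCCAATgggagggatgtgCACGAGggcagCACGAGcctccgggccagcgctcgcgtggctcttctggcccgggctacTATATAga
ARRDC4: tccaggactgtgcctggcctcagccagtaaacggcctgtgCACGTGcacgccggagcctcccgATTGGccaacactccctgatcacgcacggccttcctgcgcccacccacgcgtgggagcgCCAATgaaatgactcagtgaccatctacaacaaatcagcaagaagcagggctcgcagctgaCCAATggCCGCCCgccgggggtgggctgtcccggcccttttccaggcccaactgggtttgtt
ARRDC3: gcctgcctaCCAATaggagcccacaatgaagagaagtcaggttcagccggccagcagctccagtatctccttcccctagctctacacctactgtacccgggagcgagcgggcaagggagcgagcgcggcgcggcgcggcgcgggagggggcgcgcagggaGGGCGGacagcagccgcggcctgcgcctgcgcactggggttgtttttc

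In TXNIP 2 copies of CACGAG stood 5 bases apart, from -88 to -72 relative to the start, as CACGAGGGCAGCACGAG. This spaced form, searched as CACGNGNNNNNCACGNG on both strands after the TXNIP sequence had been seen, matched 20 of 34943 RefSeq promoter windows of 300 bases (0.0572%). CACGTG alone matched 7.23% of the windows, CACGAG 6.79%, CCAAT 34.6%, GTAAACA 3.42%, GGGCGG 44.9%, TATATA 4.0% and TATAAA, also searched, 11.6%. TXNIP had a CCAAT match on each side of the forkhead-type sequence, and the spaced pair lay downstream of both. ARRDC4 had 1 match to CACGTG and 3 to CCAAT, a number of CCAAT matches reached by 3.26% of the windows. ARRDC3 had no match to CACGTG or CACGAG in the 300 bases around its main start, and a second RefSeq start of ARRDC3 had GTAAACA on the reverse strand. MLX itself had CACGTG, from -50 to -45, together with a CCAAT match. MLXIP, ARRDC1 and the main start of ARRDC2 had no match to the E-box, its variant form or the forkhead-type sequence, and ARRDC1 had 10 matches to the GC box. These are matches of letters, not measured binding.

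**Figure D1:**
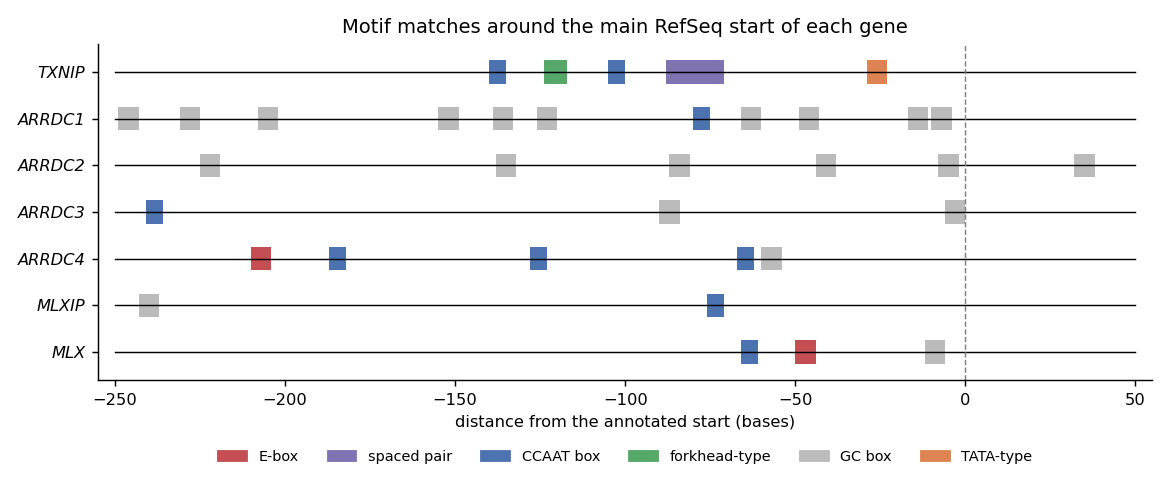
Matches to 6 sequence motifs (the spaced pair drawn as 1) along 300 bases around the main RefSeq start of each of the 7 genes. The x axis is distance from the start in bases, each row is a gene, and coloured boxes are matches on either strand. The spaced pair of CACGAG appears in TXNIP and in no other row, and the E-box appears in ARRDC4 and MLX.

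TXNIP and ARRDC3 were higher with SW-138, ARRDC1, ARRDC2, ARRDC4 and MLXIP had overlapping libraries, and MLX was slightly lower. By edgeR's quasi-likelihood test, adjusted after Benjamini-Hochberg over all 16905 tested genes with a threshold of 0.05, 2 of the 7 members passed, both higher. Of all tested genes 6.82% passed, 2.76% higher and 4.06% lower. No member passed in the lower direction with edgeR, DESeq2 or limma-voom, and 1, MLX, had an unadjusted p under 0.05 with edgeR. The groups did not overlap in 3 of the 7 members, and 27.9% of all tested genes had no such overlap (12.4% higher and 15.4% lower). The median log2 fold change of the 7 members was 0.03, and that of all tested genes 0.01. Since the members were chosen with this comparison known, nothing is read from these counts. The same 2 members passed in all 15 alternative fits. The share of all genes passing was 6.73% with DESeq2 size factors, 6.64% with upper quartile factors and 7.69% with total count alone (5.46% higher, 2.23% lower). It was 8.09% with the DESeq2 test, 6.68% with limma-voom, 14.0% with the replicate block (6.47% higher, 7.51% lower) and 7.03% with mitochondrial and stable noncoding genes left out. With other filters it was 6.54% (1 count in 1 library) and 11.5% (mean of 5 CPM). Leaving out SW-113 replicate 1, 2 or 3 gave 3.07%, 2.64% and 1.74%, and leaving out SW-138 replicate 1, 2 or 3 gave 2.93%, 9.39% and 3.49%. In bulk RNA, fewer cells of a kind and less RNA per cell cannot be told apart.

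**Figure D2:**
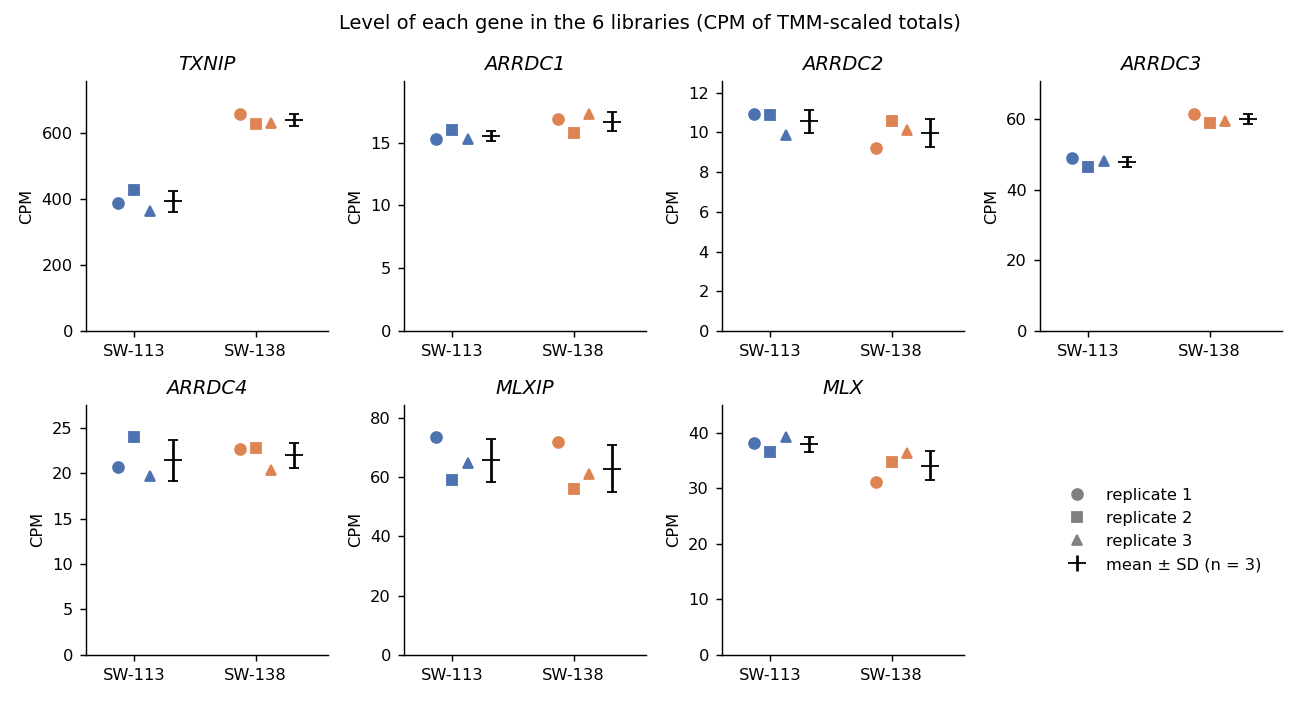
CPM (counts scaled by TMM-adjusted library totals) of the 7 genes in the 6 libraries, 1 panel per gene with a y axis from 0. Symbols are replicates and black marks the mean ± SD (n = 3). The SW-138 libraries of TXNIP lie at 627 to 658 CPM, above the SW-113 libraries at 364 to 427 CPM.

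TXNIP (ENSG00000265972, GRCh38 chromosome 1, 145992435 to 145996600, minus strand), the alpha-arrestin that inhibits thioredoxin, was measured at 387, 427 and 364 CPM in SW-113 replicates 1, 2 and 3. In SW-138 replicates 1, 2 and 3 it was at 658, 627 and 631 CPM. Every SW-138 library lay above every SW-113 library, and the SW-138 libraries lay closer together, with an SD of 16.97 CPM against 31.8 CPM (n = 3). The means, 639 and 393 CPM, differed 1.63-fold, a log2 fold change of 0.70 ± 0.06 (SE) with a 95% interval of 0.57 to 0.83. TXNIP ranked 219th of the tested genes by mean CPM and rested on 14805 to 27463 counts per library. Among the 466 genes called higher, 70 had a fold change at least as large as that of TXNIP, itself included.

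ARRDC3 (ENSG00000113369, chromosome 5, 91368724 to 91383359, minus strand), an adaptor for the integrin encoded by ITGB4, was at 48.9, 46.3 and 48.2 CPM in SW-113 replicates 1, 2 and 3. In SW-138 replicates 1, 2 and 3 it was at 61.4, 58.9 and 59.3 CPM. All SW-138 libraries were above all SW-113 libraries. The fold was 1.25, with a 95% interval of 1.16 to 1.35 and a log2 fold change of 0.33 ± 0.05 (SE). With the trend of fold change with transcript length and GC content removed, the log2 fold change was 0.24. Its within-compound SD was 0.04 on the log2 scale, below the median of 0.08 over the 9494 tested genes with a mean of at least 10 CPM. An antisense gene, ARRDC3-AS1, overlaps exons of ARRDC3 and was at 1.23 to 2.23 CPM, and the strand setting of the counting is not given in the sources used here.

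ARRDC4 (ENSG00000140450, chromosome 15, 97960698 to 97973838), which like TXNIP acts on glucose uptake, was at 20.7, 23.9 and 19.6 CPM in SW-113 replicates 1, 2 and 3. In SW-138 replicates 1, 2 and 3 it was at 22.7, 22.8 and 20.4 CPM. The groups overlapped, replicate 3 was lowest in each, and the highest value belonged to an SW-113 library. Its log2 difference, 0.03 ± 0.09 (SE), had a 95% interval running from -0.16 to 0.23. The count ratio of TXNIP to ARRDC4 within a library, which no scaling between libraries affects, averaged 18.4 ± 0.475 for SW-113 and 29.2 ± 1.74 for SW-138 (SD, n = 3), without overlap.

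ARRDC1 (ENSG00000197070, chromosome 9, 137605654 to 137615360), which acts with TSG101 in the budding of microvesicles from the cell surface, was at 15.3, 15.99 and 15.3 CPM with SW-113 and 16.9, 15.8 and 17.3 CPM with SW-138. SW-138 replicate 2 lay inside the SW-113 range. Its log2 difference, 0.10 ± 0.07 (SE), had an interval from -0.05 to 0.26. ARRDC1-AS1, an antisense gene overlapping its exons, had a level of the same order, 15.6 to 18.03 CPM, so the assignment of reads between these genes is uncertain. ARRDC2 (ENSG00000105643, chromosome 19, 18001132 to 18014102) was at 10.9, 10.8 and 9.88 CPM with SW-113 and 9.21, 10.6 and 10.1 CPM with SW-138. Its groups overlapped, and the log2 difference of -0.09 ± 0.09 had an interval from -0.28 to 0.11. The remaining alpha-arrestin gene, ARRDC5, had 2 counts, both in SW-113 replicate 2, and was not tested.

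**Figure D3:**
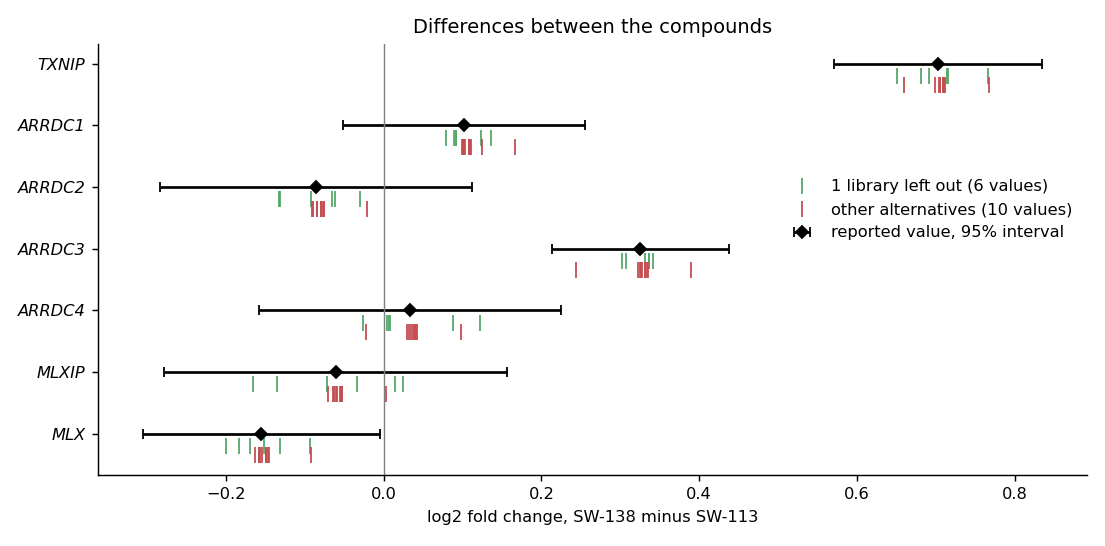
Log2 fold change of each gene, SW-138 minus SW-113, with its 95% interval (black), the 6 values with 1 library left out (green) and the 10 values under other processing (red). TXNIP (0.65 to 0.77) and ARRDC3 (0.24 to 0.39) stay above 0 throughout, and the intervals of ARRDC1, ARRDC2, ARRDC4 and MLXIP include 0.

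MLXIP (ENSG00000175727, chromosome 12, 122078722 to 122147347), the glucose-sensing subunit, was at 73.5, 59.0 and 64.8 CPM in SW-113 replicates 1, 2 and 3. In SW-138 replicates 1, 2 and 3 it was at 71.7, 56.1 and 60.9 CPM. Replicate 1 was highest and replicate 2 lowest in each compound, and the spread inside a compound was wider than the distance between the compounds. Its log2 difference, -0.06 ± 0.10 (SE), had an interval from -0.28 to 0.16, and the within-compound SD of 0.17 was the largest of the 7 genes. MLX (ENSG00000108788, chromosome 17, 42567068 to 42573239), its dimer partner, was at 38.1, 36.5 and 39.1 CPM with SW-113 and 31.2, 34.6 and 36.4 CPM with SW-138. With TMM scaling the groups just failed to overlap, with 36.5 CPM the lowest SW-113 value and 36.4 CPM the highest SW-138 value. So narrow a gap depends on the scaling, and with total count alone the log2 fold change of MLX was -0.09. In the main fit it was -0.15 ± 0.07, with an interval from -0.30 to -0.0047, and MLX was not past the adjusted threshold. PSMC3IP overlaps exons of MLX on the opposite strand and was at 5.84 to 7.77 CPM. MLXIPL, which encodes ChREBP, the MondoA relative of liver and fat, had 7 to 14 counts per library and was not tested.

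Levels were compared between genes per length, as CPM per kilobase of the union of a gene's exons. TXNIP averaged 108 ± 8.78 for SW-113 and 176 ± 4.68 for SW-138 (SD, n = 3), followed over the 6 libraries by ARRDC3 (9.38 to 12.4), MLX (7.32 to 9.19), ARRDC4 (4.82 to 5.88), MLXIP (4.04 to 5.28), ARRDC1 (3.998 to 4.53) and ARRDC2 (1.99 to 2.36). The mean of TXNIP over the 6 libraries was 13.04 times that of ARRDC3. The ranges of ARRDC4 and MLXIP overlapped, as did those of MLXIP and ARRDC1, so these neighbours were not separated. Per kilobase of the longest transcript the order changed: MLX moved above ARRDC3 by 1.08-fold with overlapping ranges, and MLXIP above ARRDC4 by 1.43-fold without overlap. Of the summed per-length level of the 5 alpha-arrestins, TXNIP made up 83.3%, 84.4% and 82.9% in SW-113 replicates 1, 2 and 3, and 88.1%, 87.8% and 88.01% in SW-138 replicates 1, 2 and 3. The other 4 together were at 20.7 to 21.8 CPM per kilobase with SW-113 and 23.7 to 24.4 with SW-138.

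**Figure D4:**
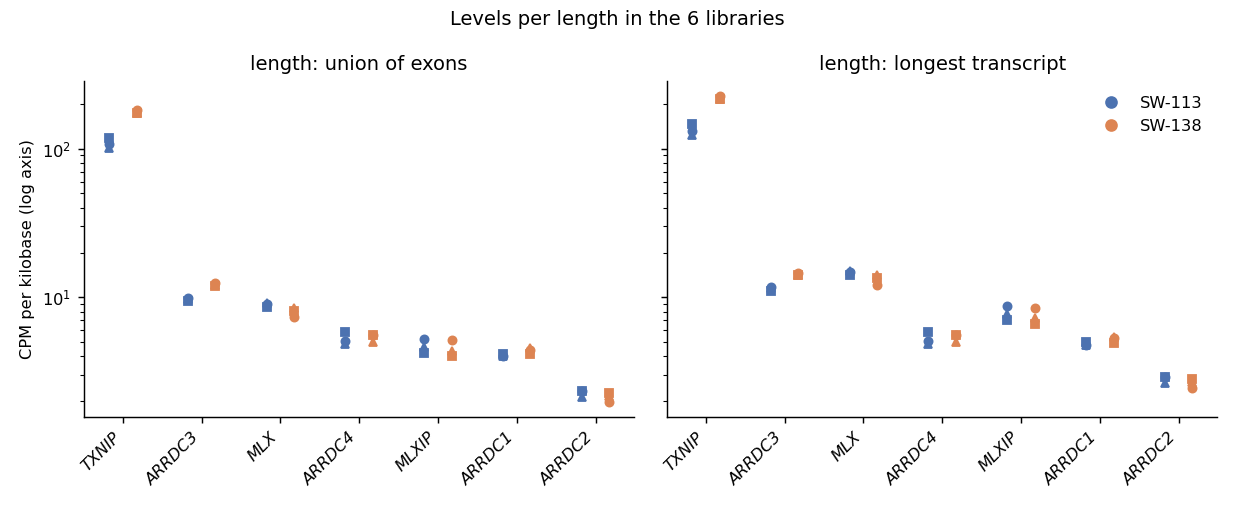
Levels of the 7 genes in CPM per kilobase on a log axis, with length taken as the union of exons (left) or the longest transcript (right). Points are libraries (symbols as replicates, colours as compounds). TXNIP lies above 100 in every library and no other gene above 15.1.

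The thioredoxin system, whose central protein TXNIP binds, had 0 of 13 tested genes higher, 3 lower and 10 that did not pass, with a median log2 fold change of -0.13. By DESeq2 and limma-voom 0 were higher too, and 1 was higher at an unadjusted p under 0.05 with edgeR. Beside this list, 2.76% of all tested genes passed in the higher direction and 4.06% in the lower direction. The median log2 fold change of all tested genes was 0.01. Whether 3 lower calls among 13 exceed the share of lower calls over all tested genes was not tested. TXN, which encodes thioredoxin itself, fell in SW-138, from 194, 190 and 205 CPM in SW-113 replicates 1, 2 and 3 to 160, 152 and 158 CPM in SW-138 replicates 1, 2 and 3. Its log2 fold change was -0.33 ± 0.05 (SE; edgeR, Benjamini-Hochberg adjusted p = 0.00576), and the groups were well apart. The count ratio of TXNIP to TXN averaged 2.00 ± 0.234 for SW-113 and 4.08 ± 0.0664 for SW-138 (SD, n = 3). Its values could not overlap, since TXNIP was higher and TXN lower in every SW-138 library, so the ratio only restates those differences in RNA. PRDX1 (-0.25 ± 0.05) and PRDX2 (-0.23 ± 0.05), peroxidases that thioredoxin reduces, were lower as well. The calls of PRDX1 and PRDX2 were lost with scaling by total count alone and without any single library other than SW-138 replicate 2. TXNRD1, the cytosolic thioredoxin reductase, was at -0.13 ± 0.05 and did not pass. TXN, TXNRD1 and PRDX1 are also NRF2 targets.

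Ligases of the NEDD4 family, the partners of alpha-arrestins, had 2 of 9 higher and 0 lower, with 0 lower also by DESeq2, by limma-voom and at an unadjusted p under 0.05. Higher calls made up 2.76% of all tested genes and lower calls 4.06%. The 9 log2 fold changes, 5 positive and 4 negative, had a median of 0.05, and that of all tested genes was 0.01. HECW2 rose from 23.8, 25.2 and 24.8 CPM in SW-113 replicates 1, 2 and 3 to 32.9, 34.5 and 33.7 CPM in SW-138 replicates 1, 2 and 3 (0.45 ± 0.06, SE; edgeR, Benjamini-Hochberg adjusted p = 0.00234). NEDD4L, which is known for removing the epithelial sodium channel, was higher by 0.27 ± 0.04 (edgeR, Benjamini-Hochberg adjusted p = 0.0113), with 322 to 339 CPM in SW-113 libraries and 392 to 410 CPM in SW-138 libraries. The NEDD4L call was lost without SW-113 replicate 1 or 3. NEDD4 was at 0.37 ± 0.14 and did not pass. It passed with the replicate block (0.34, edgeR, Benjamini-Hochberg adjusted p = 0.00642). Under the loosest filter, a single count in 1 library, it passed as well (0.36, edgeR, Benjamini-Hochberg adjusted p = 9.98e-07). That filter also lowered edgeR's adjusted p for other genes, as for HECW2 (1.95e-07), so the NEDD4 pass there depends on the filter. SW-138 replicate 2 alone stood at 185 CPM for NEDD4 where the other SW-138 libraries were at 117 and 123 CPM, and without it the log2 fold change was 0.13. ITCH, the ligase that degrades TXNIP, was at 0.05 ± 0.06.

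In the MLX and MAX network, of 8 tested partners, 0 were higher, 1 fell and 7 stayed under the threshold. DESeq2 and limma-voom each called 0 higher and 1 lower, and 0 were higher and 3 lower at an unadjusted p under 0.05 with edgeR. The one that fell was MXD4, a repressor that pairs with MAX and MLX, at 27.6, 28.5 and 26.7 CPM with SW-113 and 20.8, 20.1 and 21.8 CPM with SW-138 (-0.40 ± 0.06, SE; edgeR, Benjamini-Hochberg adjusted p = 0.00568). MAX was at -0.16 ± 0.05 and MYC, which competes for many of the same E-boxes, at 0.01 ± 0.05. Of 13 genes of glucose uptake and phosphorylation 0 were higher, 1 fell and 12 stayed under the threshold. Beside both lists, 2.76% of all tested genes passed higher and 4.06% lower. DESeq2 called 1 of these 13 higher and 2 lower, and limma-voom 0 higher and 2 lower. At an unadjusted p under 0.05 with edgeR 1 was higher and 4 were lower. SLC2A1, which encodes GLUT1, the transporter that TXNIP removes from the surface, was at 0.08 ± 0.12 with overlapping libraries from 135 to 189 CPM. HK2, which makes glucose 6-phosphate, was at 0.08 ± 0.06 (interval -0.04 to 0.21).

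None of the 8 tested carbohydrate response targets passed: the count was 0 with edgeR, adjusted or at an unadjusted p below 0.05, and 0 by DESeq2 or limma-voom. The 8 were KLF10, FASN, ACACA, ACLY, SCD, ELOVL6, KHK and IRS2, a list without the members TXNIP and ARRDC4. Since 6.82% of all tested genes passed, 8 genes are too few for a count of 0 to be read as a result. KLF10, a target shared by MondoA and ChREBP, averaged 60.1 ± 0.320 CPM for SW-113 and 58.99 ± 1.52 CPM for SW-138 (SD, n = 3), a log2 fold change of -0.03 with an interval of -0.13 to 0.08. Its libraries overlapped. Of 6 other arrestin-fold genes edgeR called 0 (2 lower at an unadjusted p under 0.05, 0 by DESeq2 or limma-voom). Of 12 genes of arrestin cargo and vesicle sorting it called 0 (1 higher at an unadjusted p under 0.05, 0 by DESeq2 or limma-voom). Of 12 kinases and transcription factors upstream of TXNIP it called 0 (3 higher at an unadjusted p under 0.05, 1 higher by DESeq2, 0 by limma-voom). Over all 8 lists 7 of 81 genes passed (8.64%, beside 6.82% of all tested genes), 2 higher and 5 lower; scaled to the total count alone, the lists held 6 higher and 3 lower. For all tested genes the split was 466 higher and 687 lower, and 923 and 377 after that scaling. Another 9 genes of the lists had too few counts to test.

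**Figure D5:**
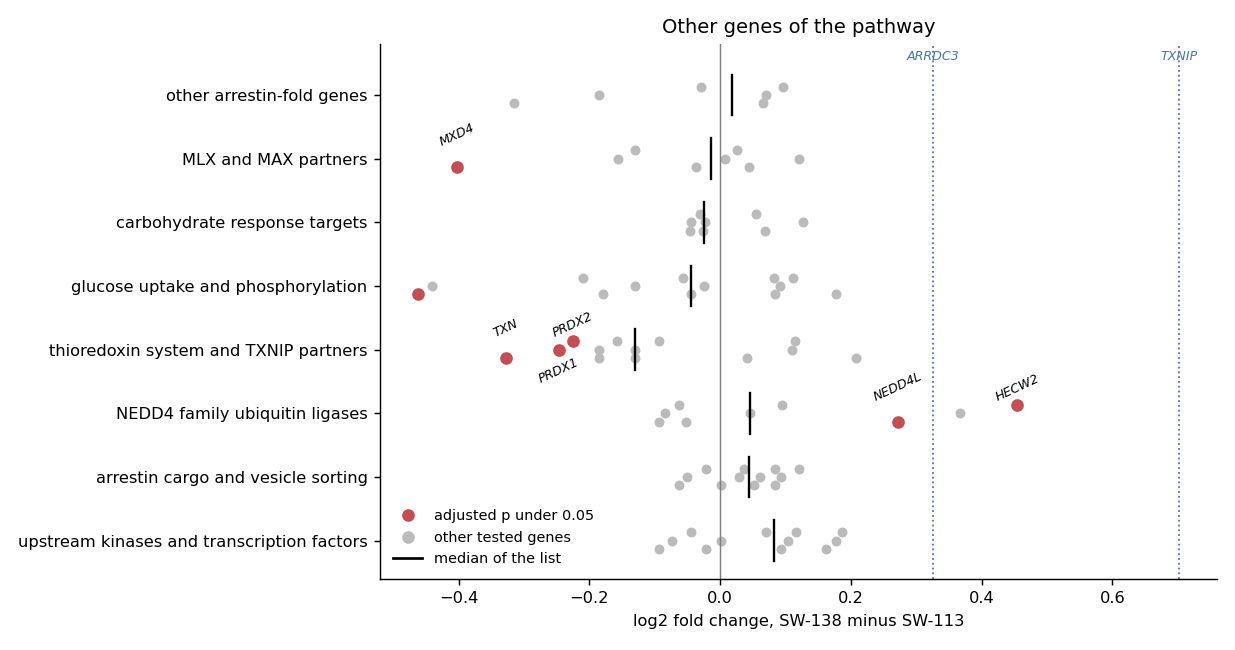
Log2 fold changes, SW-138 minus SW-113, of the 81 tested pathway genes in 8 lists, with genes past the adjusted threshold in red, all but 1 of them named, other genes in grey and each list's median as a black bar. Dotted lines mark TXNIP (0.70) and ARRDC3 (0.33), and no gene of the lists reaches the TXNIP line.

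Among the 5 genes whose log2 CPM followed TXNIP most closely over the 6 libraries were the cytokine gene IL24 (Pearson r = 0.998), ZFP36L1, which encodes an RNA-decay factor (0.995), SCG5 (0.992) and CTBS (0.992). All 5 were past edgeR's adjusted threshold and higher with SW-138, and 170 of 12556 genes had r above 0.95, a measure that includes the difference between the compounds. The call of ZFP36L1 was lost without any single library other than SW-138 replicate 2, and that of CTBS without SW-113 replicate 1 or 3 and without SW-138 replicate 1 or 3. In deviations from the compound means, IL24 was at 0.964 and ZFP36L1 at 0.961, whereas the closest genes were RPS27L (0.992), RALGAPA2 (0.99), ITPKA (0.988), SH3KBP1 (0.988) and TRIM25 (0.988). Over the 6 libraries RPS27L (-0.911) and SH3KBP1 (-0.632) ran opposite to TXNIP, and RPS27L was called lower with SW-138 (-0.30 ± 0.05, SE). RALGAPA2 (0.738), ITPKA (0.499) and TRIM25 (0.981) were positive there. The closest genes were picked as the highest of 12556, so high values follow from the choice. Among the members, ARRDC4 had the highest correlation of deviations with TXNIP (0.858) and MLX the lowest (-0.65), while ARRDC3, at 0.95 over the 6 libraries, was at -0.396 in deviations. These are descriptions over 6 libraries that share their scaling.

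Library totals ran from 32771670 to 50871623 counts. Among 8 mesenchymal markers 7 were at 1 CPM or more, with THY1 at 0.0640 CPM. Of 5 epithelial markers 1 was, CLDN4 at a mean of 2.43 CPM, while KRT5 and KRT14 were at 0 counts, and the list summed to 1.84 to 2.62 CPM in SW-113 libraries and 2.22 to 3.12 CPM in SW-138 libraries. None of 5 blood or 4 endothelial markers reached 1 CPM, and no library's sum over either list exceeded 0.959 CPM. HDAC6, the enzyme the study's title names, averaged 13.5 ± 1.04 CPM for SW-113 and 14.7 ± 0.568 CPM for SW-138 (SD, n = 3) and did not pass. The small noncoding RNA RN7SL1 took 3.72% to 4.39% of the counts with SW-113 and 2.14% to 2.88% with SW-138, and its part in the differences above was not tested beyond leaving such RNAs out, which left the log2 fold change of TXNIP at 0.70 and of ARRDC3 at 0.33. On the first principal component SW-113 libraries lay at -24.1 to -10.1 and SW-138 replicates 1, 2 and 3 at 3.54, 39.1 and 5.88. This axis parted the compounds and also set SW-138 replicate 2 away from the other SW-138 libraries. Without SW-138 replicate 2 the log2 fold change was 0.71 for TXNIP and 0.34 for ARRDC3.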

How the data were processed

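The authors deposited 1 table of expected counts per gene and library, estimates that need not be whole. Tools listed there, per the submitters' processing notes, are RSEM 1.3.3, Bowtie2 2.5.4, Trimmomatic 0.39 and DESeq2 1.42.0, with build GRCh38 and no order given. Strand setting and annotation are not given in the sources used here. RSEM divides reads that fit several genes among them. Columns were matched to samples by their titles, and 0 other sample columns were present. Counts were rounded and filtered with edgeR's filterByExpr. SW-138 was compared with SW-113 by edgeR 4.0.16 (quasi-likelihood test, TMM factors, no block) with Benjamini-Hochberg adjustment at 0.05. Standard errors came from limma-voom (limma 3.58.1), and the 95% intervals take edgeR's log2 fold change as their centre. Log2 CPM used a prior count of 2. Coordinates and lengths came from GENCODE release 29, which covered 57055 of 60675 rows, and promoters from RefSeq, where all 7 members matched. The fit was tested on simulated data. R was 4.3.3.

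The members, the 8 pathway lists, compiled by hand, and the tests were chosen with earlier results of these data known. Named were the 7 members, ARRDC5, MLXIPL, HDAC6, genes of the lists past the threshold (at most 4 per list and direction), 9 list genes always (SLC2A1, HK2, KLF10, TXN, TXNRD1, ITCH, NEDD4, MYC and MAX), the 5 genes closest to TXNIP by each correlation (genes with a mean of at least 1 CPM) and genes starting within 100 kb of TXNIP. Some genes that this rule names are not reported here.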

Additional observations from a re-analysis of the deposited data

How the results depend on the processing

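TXNIP and ARRDC3 were the members past the threshold in every one of the 15 alternatives with a test, with log2 fold changes of 0.65 to 0.77 and 0.24 to 0.39 over all 16. Over 31 genes followed singly, 414 of 465 values under alternatives with a test kept direction and side of the threshold. Directions turned, for genes not past the threshold, with total count alone for MLXIP (0.0034) and KLF10 (0.038), with the length and GC trend removed (no test) for ARRDC4 (-0.022) and ITCH (-0.036), and without single libraries for ARRDC4 (range -0.026 to 0.12), MLXIP (-0.17 to 0.025), SLC2A1 (-0.025 to 0.21), ITCH (-0.0014 to 0.082) and MYC (-0.023 to 0.030). The 6 fits without a library called 303 to 1616 genes over the whole table and 4 to 8 pathway genes. Keeping genes at 1 count in 1 library called 2060 genes, and keeping genes at a mean of 5 CPM called 11 pathway genes. The replicate block called 2363 genes, 13 pathway genes and the same count of 2 members. Same-numbered libraries had correlations of deviations of 0.07, 0.32 and 0.03, and differently numbered ones ran from -0.26 to 0.20. Not every library correlated best with its own number. With 3 libraries per compound, these values cannot decide whether the numbers mark pairs. The labels name no shared batch, so the main fit had no block. The cause of these changes in counts was not tested.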

Other observations

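Around TXNIP on chromosome 1, 13 annotated genes start within 100 kb of its start, and 8 of them were tested. The nearest tested gene, POLR3GL, which encodes a subunit of RNA polymerase III, starts 31898 bases away and had a log2 fold change of -0.01 ± 0.11 (SE). RBM8A (-0.01 ± 0.05) and LIX1L (0.01 ± 0.05) did not pass. Nor did 3 neighbours with means of 0.529 to 1.74 CPM: ANKRD34A, 32018 bases away, at 0.58 ± 0.20, GNRHR2 at 0.42 ± 0.30 and LINC01719 at 0.38 ± 0.46. ITGA10, an integrin alpha chain that binds collagen, starts 86411 bases away and was higher by 0.70 ± 0.13, the same size as TXNIP (edgeR, Benjamini-Hochberg adjusted p = 0.0114). It was the 1 neighbour of the 8 tested that passed the threshold, which 6.82% of all tested genes passed. Dropping SW-113 replicate 2, SW-113 replicate 3 or SW-138 replicate 3 ended its call, with log2 fold changes of 0.63 to 0.69 there.

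The spaced pair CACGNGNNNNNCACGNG was found before 19 genes other than TXNIP, of which 15 were tested. Of these 15, 3 passed edgeR's adjusted test, all lower (6.82% of all tested genes passed, 4.06% lower), and the median log2 fold change was -0.07, with a range from -0.64 to 0.61 (RCN3). The 3 were ATP5ME, which encodes a subunit of the mitochondrial ATP synthase (-0.64 ± 0.08, SE), MTHFS, an enzyme of folate metabolism (-0.33 ± 0.07), and TCEAL4 (-0.28 ± 0.08). They were chosen after their values were seen. TCEAL4 did not pass in 8 of the 15 alternatives with a test and MTHFS in 4, each without a single library or, for TCEAL4, with another scaling.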
